A study of Mus musculus with 4 samples.

Results

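This report follows 6 genes of the interleukin 1 system, Il1a, Il1b, Il1rn, Il1r1, Il1r2 and Il18, through 4 single-cell RNA libraries of mouse mammary tumours. They were taken by gene symbol from a feature table of 31054 features, and all 6 had UMIs (unique molecular identifiers, 1 per captured transcript) in every library. The study examined how immune checkpoint inhibitors change tumours of 2 triple-negative breast cancer models. The T11-Apobec model was a tumour cell injection into the number 4 mammary gland of female BALB/c mice (label "Balbc"), and the KPB25Luv model an injection into the same gland of female FVB/NJ mice. In each model 1 library came from a tumour given anti-PD1 at 10 mg/kg with anti-CTLA4 at 100 µg, biweekly from a diameter of 5 mm and taken after 7 days, and 1 library had the treatment "none". Each model is 1 injected tumour line, whole dissociated tumours were loaded with no sort, and the labels state neither ages nor how many tumours went into a library. No group had a replicate, so each comparison is of 2 libraries, no test was possible, and all intervals cover counting error only.

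The interleukin 1 system starts inflammation. IL-1α and IL-1β, encoded by Il1a and Il1b, bind the signalling receptor encoded by Il1r1. The Il1rn product occupies that receptor without signalling, and the Il1r2 product is a decoy that binds the ligands without signalling. IL-18 is a related cytokine with its own receptor, it raises interferon-gamma in T and NK cells, and the Il18bp product neutralises it. Pro-IL-1β and pro-IL-18 are cut by caspase 1 in the inflammasome, so a transcript count says nothing of how much active protein was released.

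On GRCm38 the ligand genes Il1a (chr2:129299610-129309972, minus strand) and Il1b (chr2:129364570-129371139, minus strand) lie next to each other. Il1rn lies at chr2:24336853-24351494 on the plus strand. The receptor genes Il1r2 (chr1:40074079-40125231) and Il1r1 (chr1:40225080-40317257) are also neighbours, both on the plus strand, and Il18 lies at chr9:50554827-50581840 on the plus strand. The 250 bases upstream of the RefSeq start sites (GRCm38.p6) are printed for Il1b and Il1rn, whose levels moved in opposite directions in macrophages, and for Il1a, the other ligand. Capitals mark matches, on either strand, to a kappaB motif (GGGA, any 4 bases, CC), an AP-1 motif (TGANTCA), a C/EBP motif (TTGCNNAA) or a TATA box (TATAAA).
Il1b, chr2:129371140-129371389, minus strand: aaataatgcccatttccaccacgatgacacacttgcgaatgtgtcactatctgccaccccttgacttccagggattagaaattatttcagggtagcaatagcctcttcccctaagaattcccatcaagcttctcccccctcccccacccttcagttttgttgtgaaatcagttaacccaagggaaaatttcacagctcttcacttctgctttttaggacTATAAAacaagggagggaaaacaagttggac
Il1rn, chr2:24336610-24336859, plus strand: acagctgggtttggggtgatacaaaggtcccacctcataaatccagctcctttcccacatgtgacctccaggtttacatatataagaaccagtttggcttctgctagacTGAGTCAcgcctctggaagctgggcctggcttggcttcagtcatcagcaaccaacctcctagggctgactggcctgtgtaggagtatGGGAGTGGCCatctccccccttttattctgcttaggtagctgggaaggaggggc
Il1a, chr2:129309973-129310222, minus strand: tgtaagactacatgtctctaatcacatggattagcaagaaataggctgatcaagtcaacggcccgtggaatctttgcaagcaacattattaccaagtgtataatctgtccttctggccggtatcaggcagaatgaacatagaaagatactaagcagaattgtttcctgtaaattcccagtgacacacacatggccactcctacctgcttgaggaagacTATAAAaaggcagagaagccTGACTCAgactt
Both ligand genes held a TATA box just before the start, at -31 to -26 in Il1b and at -32 to -27 in Il1a, and Il1a also held an AP-1 match at -12 to -6. The first of the 3 Il1rn start sites held an AP-1 match at -141 to -135 and a kappaB match at -54 to -45, and neither of the others held a match. Among all 32851 mouse promoter windows of that length, 17.6% held the kappaB motif, 6.75% the AP-1 motif, 9.56% the C/EBP motif and 12.4% the TATA box. Il1r1 held 1 C/EBP match at its first start site, Il18 held 1 TATA match on the minus strand at -175 to -170, and Il1r2 held none of the 4 motifs. These are matches of letters in a window, not measured binding sites.

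The libraries held 5509 to 11304 cell barcodes and 30369476 to 98475778 UMIs, and 5273 to 10321 cells were kept, with median depths of 3866 to 9704 UMIs per cell. Cells were placed in 12 classes by UMIs of marker genes that exclude the 6 genes, and levels are in CPM, the gene's UMIs per 1000000 summed UMIs of the class. Genes not used in a class's own rule matched its name for macrophages, with Csf1r at 279 to 582 CPM, and for T cells, with Trac at 490 to 877 CPM. Csf1r does not set macrophages apart from monocytes, whose rule counts it and which held 292 to 364 CPM. Adgre1, in neither rule, was at 140 to 251 CPM in macrophages and at 28.7 to 109 CPM in monocytes. Ly6g, a mouse neutrophil gene, was at 0 UMIs in the 36 neutrophils of each treated library. It was at 115 CPM in untreated T11-Apobec and 33.9 CPM in untreated KPB25Luv neutrophils. With 3 counts as the limit of detection, 36 cells could not show the untreated KPB25Luv level, so no difference is shown in that model. Tumour cells were read as mesenchymal cells in T11-Apobec and as keratin-positive cells in KPB25Luv. The untreated KPB25Luv library held keratin transcripts outside keratin-positive cells: its B cells held 274 CPM of the keratin Krt8, against 0 to 3.17 CPM in B cells of the other 3 libraries. The treated KPB25Luv library held few myeloid and tumour cells, with 25 macrophages, 36 neutrophils and 49 keratin-positive cells, against 432, 612 and 2685 in the untreated library. In T11-Apobec the same change of library took macrophages from 2417 to 596, neutrophils from 148 to 36 and tumour cells from 5525 to 691.

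Il1b, the inducible ligand, was at its highest level in neutrophils in all 4 libraries. Its level in neutrophils was 13632 CPM in treated and 13705 CPM in untreated T11-Apobec, and 15029 CPM in treated and 11969.6 CPM in untreated KPB25Luv. The median neutrophil held 13, 8.5, 10 and 12 Il1b UMIs in the same order, at a median depth of only 667 to 958.5 UMIs per cell. Between 93.9% and 97.2% of neutrophils had an Il1b UMI, against 0.395%, 0.826%, 0.781% and 9.04% of B cells at median depths of 1608.5, 906, 2648.5 and 2003 UMIs. With each cell thinned to 1000 UMIs, which kept only 7, 15, 11 and 273 neutrophils, the shares were 85.7%, 93.3%, 81.8% and 91.9%. Nearly every neutrophil thus held Il1b transcripts, and treated and untreated levels lay within 1.26-fold of each other in both models: the log2 ratio was -0.01 (95% interval -0.15 to 0.13) in T11-Apobec and 0.33 (0.19 to 0.46) in KPB25Luv. A difference was called only where its whole interval lay past 1.5-fold, with at least 10 UMIs in the pair of libraries and 25 cells in each, and neither met that. With the median ratio of all genes set to 0, the KPB25Luv neutrophil value was 0.82 (0.68 to 0.95) and would be called higher. Log2 ratios and folds add 0.5 UMIs to both counts, which moves ratios of few UMIs towards 0.

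**Figure D1:**
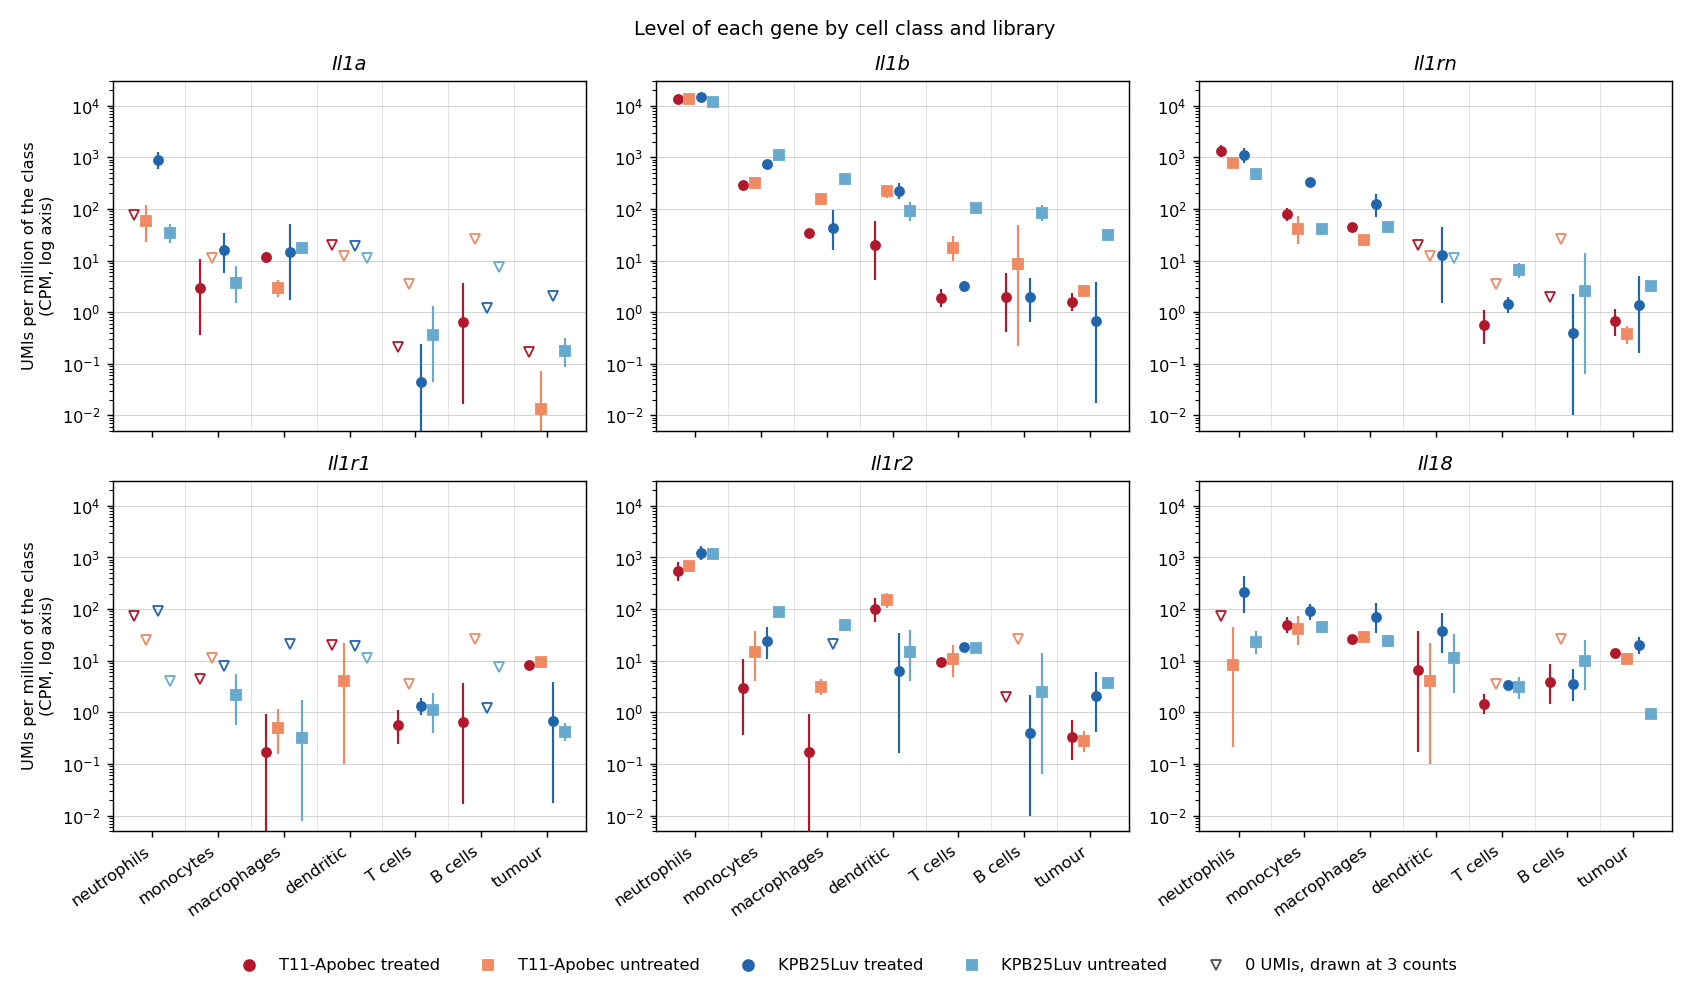
Level of each of the 6 genes (CPM, log axis) by cell class, with 1 point per library and its exact Poisson 95% counting interval; open triangles mark classes with 0 UMIs, drawn at the level of 3 counts. Tumour cells are mesenchymal cells in T11-Apobec and keratin-positive cells in KPB25Luv. The 4 neutrophil points of Il1b lie between 11969.6 and 15029 CPM, while its macrophage points spread from 34.4 to 388 CPM.

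After neutrophils the order of Il1b levels was monocytes first in each library, at 289 and 318 CPM in treated and untreated T11-Apobec and 742 and 1091 CPM in KPB25Luv. Monocytes here are Lyz2-positive cells with little C1q, the blood-derived precursors of tumour macrophages. Monocyte intervals overlapped those of the next class only in untreated T11-Apobec, where dendritic cells held 220.01 CPM. Macrophages came next in untreated KPB25Luv at 388 CPM, and in treated T11-Apobec at 34.4 CPM, where their interval overlapped that of dendritic cells at 20.1 CPM. Neither monocyte difference between treatment and none was called: the log2 ratio was -0.14 (-0.51 to 0.25) in T11-Apobec and -0.55 (-0.74 to -0.37) in KPB25Luv, which was called lower, at -0.78, only with the marker minimums as first written.

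Macrophages held less Il1b with treatment in both models. It was at 34.4 CPM in treated against 153 CPM in untreated T11-Apobec macrophages, 4.44-fold lower (3.85 to 5.18). In KPB25Luv it was at 43.0 against 388 CPM, 8.34-fold lower (4.14 to 24.6), although the treated value rests on 6 UMIs in 25 cells and the log2 ratio moved from -3.06 to -1.36 when cells meeting several class rules were kept. The neutrophil genes S100a8 and S100a9 together were at 41.1 CPM in treated and 29.9 CPM in untreated T11-Apobec macrophages, and at 107 and 158 CPM in KPB25Luv ones. Per 100 UMIs of these genes, treated and untreated T11-Apobec macrophages held 83.7 and 512 Il1b UMIs, and neutrophils 13.7 and 8.95. KPB25Luv macrophages held 40.0 (12.7 to 109) and 245, and neutrophils 59.0 and 24.8. The part of free neutrophil RNA in the macrophage values was not tested. A smaller share of treated T11-Apobec macrophages held an Il1b UMI, 13.4% against 28.4%, at median depths of 9513 and 3935 UMIs. Thinned to 1000 UMIs, the shares were 4.38% (2.88 to 6.35) and 12.9% (11.5 to 14.3), against 0.399% of treated B cells and 0 of 44 untreated ones, which allows a share of up to 6.82% (3 of 44 cells).

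The macrophages of the T11-Apobec libraries were of different make-up, since 69.8% of treated cells had Cxcl9, an interferon-induced chemokine gene, against 8.90% of untreated cells. The part of make-up in the Il1b difference was not tested. Within each subset with at least 25 cells in both libraries, Il1b was at a lower level in treated cells. Among Cxcl9-positive macrophages it was at 40.9 against 167 CPM, and among those without Cxcl9 at 17.1 against 151 CPM. Macrophages without Fcrls, an Fc receptor-like gene, held 35.1 against 220.1 CPM. Those with Folr2, a marker of resident-like macrophages, held 24.1 against 69.8 CPM, and those without it 42.1 against 196 CPM. None of these 5 pairs of intervals overlapped, but the 3 splits divide the same cells and are not independent. The treated KPB25Luv library had too few macrophages to split, but make-up differed in that model too. Fcrls-positive cells were 1 of the 25 treated KPB25Luv macrophages, 4%, against 62.0% of the untreated ones. The part of this in the KPB25Luv macrophage differences was not tested.

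Il1rn, the receptor antagonist, went the other way in macrophages of both models. It was at 44.7 CPM in treated and 25.01 CPM in untreated T11-Apobec macrophages, 1.79-fold higher (1.502 to 2.13). In KPB25Luv macrophages it was at 122 CPM, from 17 UMIs in 25 cells, against 44.1 CPM, 2.83-fold higher (1.57 to 4.58). These 2 calls sit near the limit: both were lost with totals that leave out mitochondrial, ribosomal protein, S100a8 and S100a9 UMIs, at log2 ratios of 0.79 and 1.44, and that of T11-Apobec also with a minimum of 500 genes per cell, at 0.84. KPB25Luv macrophages without Fcrls held 127 CPM (74.0 to 204) with treatment and 72.5 CPM (57.4 to 90.4) without. These intervals overlapped, and the 24 treated cells are under the minimum of 25. In T11-Apobec Il1rn was higher within the same 5 subsets, for example at 38.4 against 16.02 CPM in Cxcl9-positive cells and 61.6 against 25.98 CPM in those without Cxcl9, with no overlap of intervals in any. Monocytes of KPB25Luv showed the largest Il1rn ratio, 333 CPM in treated against 40.4 CPM in untreated cells, 8.23-fold higher (6.16 to 11.1), and 51.4% of treated monocytes held a UMI against 22.5% of untreated ones. T11-Apobec monocytes held 78.2 and 41.2 CPM, a log2 ratio of 0.87 (-0.03 to 2.01) that was called, at 1.60, only with cells of several classes kept. Neutrophils held the highest Il1rn level in each library, with an interval clear of the next class: 1323 and 792 CPM in treated and untreated T11-Apobec, and 1093 and 473 CPM in KPB25Luv. The neutrophil difference was called in KPB25Luv, 2.34-fold (1.59 to 3.26), though not under 3 of the 6 alternatives that gave a value, and not in T11-Apobec, where the log2 ratio was 0.75 (0.23 to 1.24). Whether the models differ in this was not tested. B cells, the background for free RNA, held 0 or 1 Il1rn UMI per library.

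Because Il1b and its antagonist were counted in the same cells, their ratio does not depend on how cells were scaled. T11-Apobec macrophages held 0.77 Il1b UMIs per Il1rn UMI (0.64 to 0.92) with treatment and 6.12 (5.36 to 7.01) without. In KPB25Luv macrophages the ratio was 0.35 (0.11 to 0.94) with and 8.80 (7.39 to 10.6) without treatment. Monocytes held 3.70 and 7.73 in T11-Apobec, with overlapping intervals, and 2.23 and 27.0 in KPB25Luv, with intervals far apart. Neutrophils had the smallest shift, from 17.3 untreated to 10.3 treated in T11-Apobec and from 25.3 to 13.8 in KPB25Luv. All 6 pairs were thus lower in the treated library, and 5 of the 6 had intervals that did not overlap. The ratio compares libraries and is not a level of one gene over the other, since capture may differ between transcripts.

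**Figure D2:**
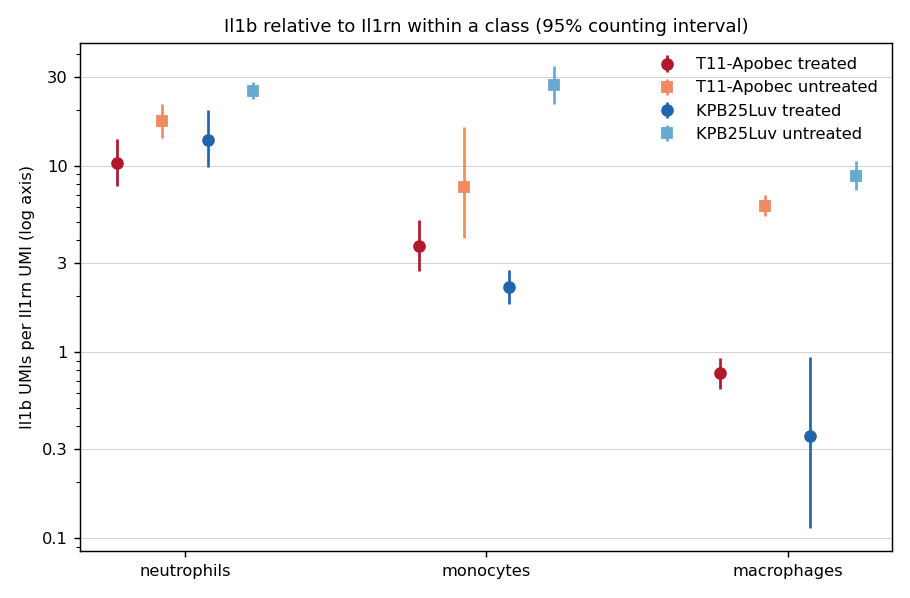
Il1b UMIs per Il1rn UMI (log axis) in neutrophils, monocytes and macrophages, with 1 point per library and its exact 95% counting interval. In each class and model the treated point lies below the untreated one, by the most in macrophages (0.77 against 6.12 in T11-Apobec, 0.35 against 8.80 in KPB25Luv).

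Il1a, the ligand that is active without processing, was sparse, with 40 to 127 UMIs per library. In T11-Apobec most of it lay in macrophages, which held 88.6% of its UMIs with treatment and 69.8% without. In the untreated library its level was highest in neutrophils, at 57.7 CPM from 7 UMIs. The 36 treated neutrophils held 0, which with 3 counts as the limit allows up to 74.9 CPM, so a difference was not detectable at this depth. Its macrophage level was 11.7 against 2.92 CPM, 3.98-fold higher with treatment (2.58 to 6.39). The 2 ligands thus moved in opposite directions in the sums of this class. Of the treated macrophages, 10 held UMIs of both ligands, 70 of Il1b only and 40 of Il1a only. Macrophages without Cxcl9 held 18.9 against 2.69 CPM, while the intervals overlapped in Cxcl9-positive ones, at 9.01 and 5.01 CPM. In KPB25Luv macrophages Il1a was at 14.3 CPM, from 2 UMIs, and 17.8 CPM, a log2 ratio of -0.01 (-3.40 to 1.60). KPB25Luv neutrophils held 880.5 CPM with treatment and 33.9 CPM without, which met the call at a log2 ratio of 4.70 (3.88 to 5.53). That value rests on 1 cell, which held 26 of the 29 treated UMIs.

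Il1r2, the decoy receptor, was led by neutrophils too, at 549 and 676 CPM in treated and untreated T11-Apobec and 1245 and 1169 CPM in KPB25Luv. Treated and untreated neutrophils did not differ beyond counting error, with log2 ratios of -0.28 (-1.05 to 0.39) and 0.11 (-0.40 to 0.54). In T11-Apobec dendritic cells came second, at 100.3 and 148 CPM, and their interval overlapped neither that of neutrophils nor that of the class after them. Macrophages and KPB25Luv monocytes held less with treatment. T11-Apobec macrophages held 0.168 CPM, 1 UMI, against 3.11 CPM, a ratio of 12.6-fold lower with an interval of 3.10 to 757, which lost its call with cells of several classes kept or cells thinned. Only 0.827% of these untreated cells held an Il1r2 UMI, and 1 cell held 10 of the 32 UMIs. KPB25Luv macrophages held 0 UMIs against 155 UMIs at 48.4 CPM, at least 2.26-fold lower when 3 counts are taken as the limit of detection of the 25 treated cells. The untreated UMIs there lay in 10.6% of the macrophages. KPB25Luv monocytes held 23.8 against 89.2 CPM, 3.57-fold lower (1.93 to 8.35), a call lost in thinned cells and with the marker minimums as first written, at log2 ratios of -0.40 and -1.43.

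T cells held most Il1r2 UMIs of the treated libraries, 66% in T11-Apobec and 81% in KPB25Luv, against 3.83% and 5.07% in the untreated ones. Their level was 9.58 and 10.6 CPM in treated and untreated T11-Apobec and 18.3 and 17.6 CPM in KPB25Luv, with log2 ratios of -0.22 (-1.12 to 1.01) and 0.05 (-0.26 to 0.39). T cells were 49.6% against 3.93% of kept cells in T11-Apobec and 76.3% against 18.7% in KPB25Luv. Neutrophils, the other main carriers, held 22 against 82 Il1r2 UMIs in T11-Apobec and 41 against 863 in KPB25Luv, and how much each class added to the shift was not tested. The transcript was found in Foxp3-positive T cells, the regulatory subset, in conventional CD4 T cells and in T cells assigned to no subset, and its level was lower in CD8 T cells in 3 of the 4 libraries. In treated T11-Apobec the levels were 30.3 CPM (19.6 to 44.7) in Foxp3 cells, 29.3 CPM (22.4 to 37.7) in conventional CD4 cells and 1.65 CPM (0.90 to 2.76) in CD8 cells. Treated KPB25Luv cells followed the same order, at 55.9 CPM (47.5 to 65.3), 33.1 CPM (27.7 to 39.3) and 5.62 CPM (4.30 to 7.22), and there the first 2 intervals were apart. The Foxp3 UMIs there lay in 68 cells and the conventional CD4 ones in 45. A single T cell of that library, of a subset not recorded, held 37 of the 414 Il1r2 UMIs. The intervals do not allow for such cells, so the order of these 2 subsets is uncertain. Untreated KPB25Luv Foxp3, conventional CD4 and CD8 cells held 45.3, 38.8 and 7.40 CPM, with the CD8 interval below the others. The untreated T11-Apobec subsets held 3, 0 and 1 UMIs and show no order. T cells in none of these subsets held 37 of the 136 UMIs in treated T11-Apobec, at 13.2 CPM, and 65 of the 414 in treated KPB25Luv, at 13.3 CPM. Without treatment they held 5 of 9 UMIs in T11-Apobec and, in KPB25Luv, 34 of 97, more than any named subset, at 27.5 CPM (19.03 to 38.4) with an interval that overlapped those of Foxp3 and conventional CD4 cells. B cells held 0 and 1 Il1r2 UMIs in treated T11-Apobec and KPB25Luv, and their intervals, up to 2.41 and 2.21 CPM, lay below those of T cells. In untreated KPB25Luv B cells held 1 UMI, at 2.51 CPM (0.0636 to 14.002), and T cells 17.6 CPM (14.2 to 21.4). The 121 untreated T11-Apobec B cells held 0 UMIs, which with 3 counts as the limit allows up to 25.9 CPM, above the T cell level of 10.6 CPM.

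**Figure D3:**
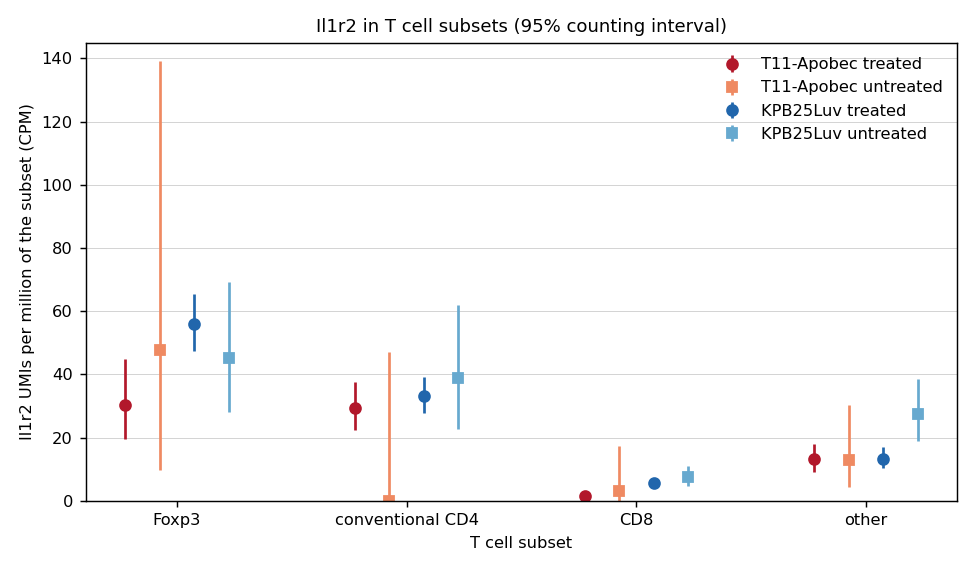
Il1r2 level (CPM) in 4 subsets of T cells, with 1 point per library and its exact Poisson 95% counting interval. In both treated libraries CD8 T cells, at 1.65 and 5.62 CPM, lie below Foxp3 and conventional CD4 T cells, at 29.3 to 55.9 CPM.

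Il1r1, the signalling receptor, was a transcript of non-immune cells in T11-Apobec, where mesenchymal tumour cells held 81.7% of its UMIs with treatment and 87.8% without. Tumour cells held 8.12 and 9.38 CPM, a log2 ratio of -0.20 (-0.47 to 0.05), and in the treated library the interval of the 57 keratin-positive cells, at 8.997 CPM from 6 UMIs, overlapped theirs. Among untreated T11-Apobec cells, pericytes, the cells that wrap small vessels, were highest at 86.4 CPM (56.4 to 127), followed by fibroblasts at 38.2 CPM (23.3 to 59.0), and these 2 intervals overlapped. Both lay above the tumour cells, whose interval was 8.70 to 10.1 CPM. In untreated KPB25Luv endothelial cells, at 15.1 CPM (7.55 to 27.1), were highest among classes of at least 25 cells. The 14 fibroblasts there held 21 UMIs, 23.1% of all, at 96.9 CPM (59.97 to 148), and the 13 pericytes held 6 UMIs at 62.97 CPM (23.1 to 137). KPB25Luv keratin-positive cells held only 0.681 CPM, 1 UMI, with treatment and 0.417 CPM without. Neutrophils of all 4 libraries held 0 Il1r1 UMIs. In the 612 untreated KPB25Luv neutrophils, the deepest set, 0 UMIs allow a level of up to 4.06 CPM with 3 counts as the limit, while the sets of 36 cells allow up to 74.9 and 91.1 CPM. Treated KPB25Luv T cells held 30 UMIs at 1.33 CPM, 17 of them in conventional CD4 cells.

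The IL-18 gene, Il18, was spread over tumour and myeloid cells. In T11-Apobec, tumour cells held 48.9% of its UMIs with treatment and 68.6% without, at 13.8 and 10.6 CPM, a log2 ratio of 0.38 (0.17 to 0.59) that did not reach the call. Monocytes were highest, at 50.1 and 41.2 CPM, and macrophages followed at 26.3 and 28.3 CPM, with intervals that overlapped in the untreated library only, and neither class differed by a call. In KPB25Luv, monocytes held 89.8 and 44.1 CPM and macrophages 71.6 and 24.1 CPM in the treated and untreated libraries, again with no call. The macrophage log2 ratio of 1.63 (0.46 to 2.53) was called higher in 2 alternatives, at 1.75 and 1.82. Treated KPB25Luv neutrophils held 213 CPM from 7 UMIs against 23.0 CPM from 17 UMIs, 9.60-fold higher (3.23 to 23.4). Treated keratin-positive cells held 19.7 CPM against 0.947 CPM, 21.0-fold higher (12.9 to 33.0), with a UMI in 28.6% of 49 cells against 2.12% of 2685 cells at median depths of 24548 and 22589 UMIs. The 5 treated cells with the most Il18 held 69.0% of the 29 UMIs. B cells, at much lower depth, held an Il18 UMI in 1.41% and 2.41% of cells. The 2 keratin-positive sets differed in other genes too: Vim, an intermediate filament gene, was at 572 CPM with treatment against 1647 CPM without, and Krt8 at 2423 against 2007 CPM. Whether the treated set is the same kind of cell was not tested.

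**Figure D4:**
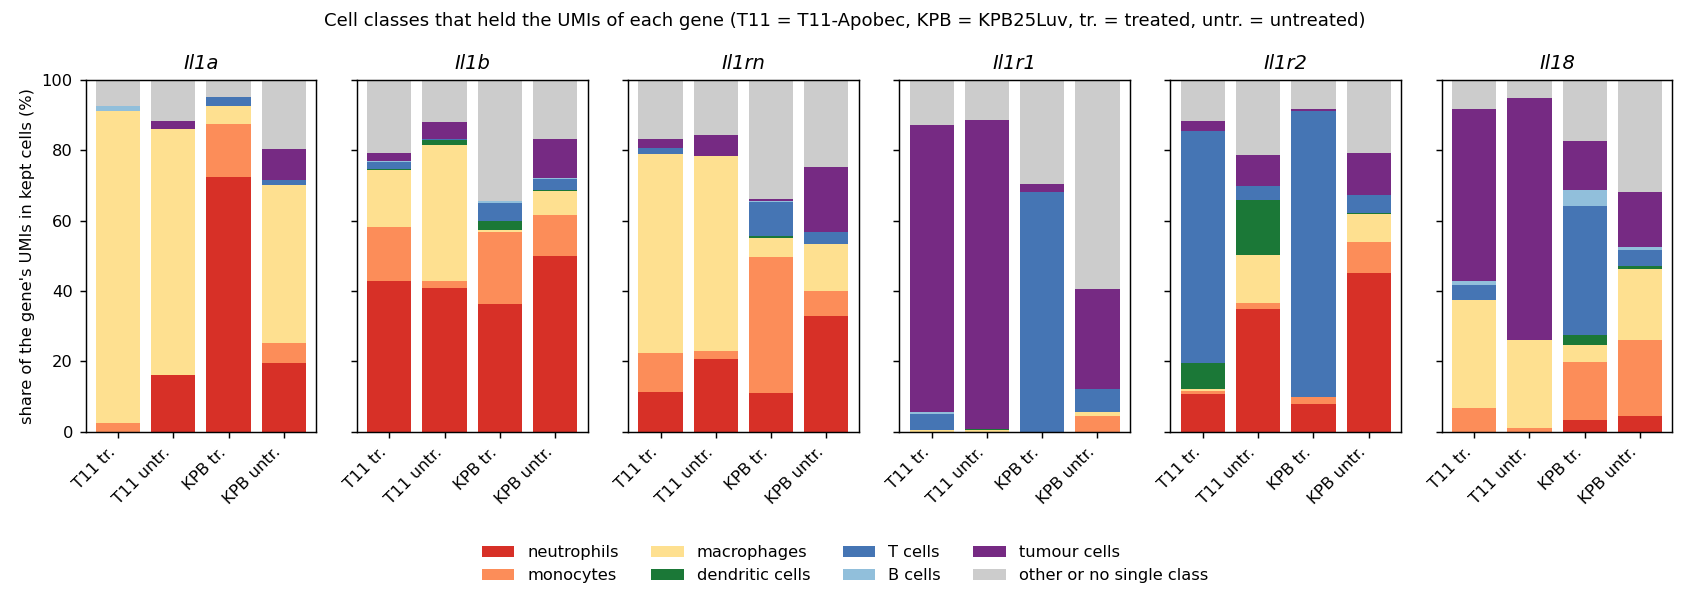
Share of each gene's UMIs in kept cells that fell in each cell class (stacked bars, 1 per library); grey is all other classes and cells in no class or several. Il1r1 lies mostly in tumour cells in T11-Apobec (81.7% and 87.8%), and Il1r2 moves from 3.83% and 5.07% in T cells of untreated libraries to 66% and 81% in the treated ones.

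In whole libraries Il1b stood at 27.6 CPM in treated and 42.1 CPM in untreated T11-Apobec and at 45.4 and 203 CPM in KPB25Luv. Neutrophils held 42.8% and 40.8% of it in T11-Apobec and 36.3% and 49.9% in KPB25Luv. T11-Apobec macrophages held 16.1% of it with treatment and 38.6% (37.1 to 40.1) without. The untreated share overlapped that of neutrophils (39.3 to 42.3). Neutrophils made up 0.587% and 1.43% of kept T11-Apobec cells and 0.683% and 9.45% of kept KPB25Luv cells. Cells in no class held 25.1% of Il1b UMIs in treated KPB25Luv and 4.96% to 10.6% in the other libraries, so some Il1b-bearing cells lie outside the classes.

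T cells and tumour cells held little Il1b, except in untreated KPB25Luv. T cells were at 1.90 and 17.7 CPM in treated and untreated T11-Apobec and at 3.14 and 102 CPM in KPB25Luv, and the treated library was lower in both by the call, with log2 ratios of -3.24 (-4.18 to -2.20) and -5.02 (-5.40 to -4.67). In T11-Apobec these values rest on single cells, since 1 cell held 17 of the 27 treated UMIs and 1 cell 12 of the 15 untreated ones. Thinned cells and the mean of each cell's own CPM gave no call there, at log2 ratios of -1.74 and -0.82. In untreated KPB25Luv each class of at least 25 cells held Il1b UMIs: B cells were at 82.9 CPM, endothelial cells at 38.5 CPM and keratin-positive cells at 31.6 CPM. NK cells there were lowest, at 11.4 CPM (1.38 to 41.2) from 2 UMIs. Keratin-positive cells there held 27.1 Il1b UMIs (25.8 to 28.5) per 100 UMIs of the neutrophil genes S100a8 and S100a9, endothelial cells 20.3 (13.01 to 30.6) and the neutrophils themselves 24.8 (24.3 to 25.4). T cells held 65.5 (58.8 to 72.9) and B cells 55.9 (35.4 to 87.1) on that measure. Il1rn in KPB25Luv T cells was lower with treatment as well, at 1.42 against 6.52 CPM. The part of free RNA in these lymphocyte and tumour cell values was not tested. In T11-Apobec tumour cells Il1b was at 1.60 and 2.60 CPM, a log2 ratio of -0.68 (-1.31 to -0.13) with no call, and 1 cell held 19 of the 29 treated UMIs. It was called lower, at -1.91 to -1.30, in 3 of the alternatives.

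**Figure D5:**
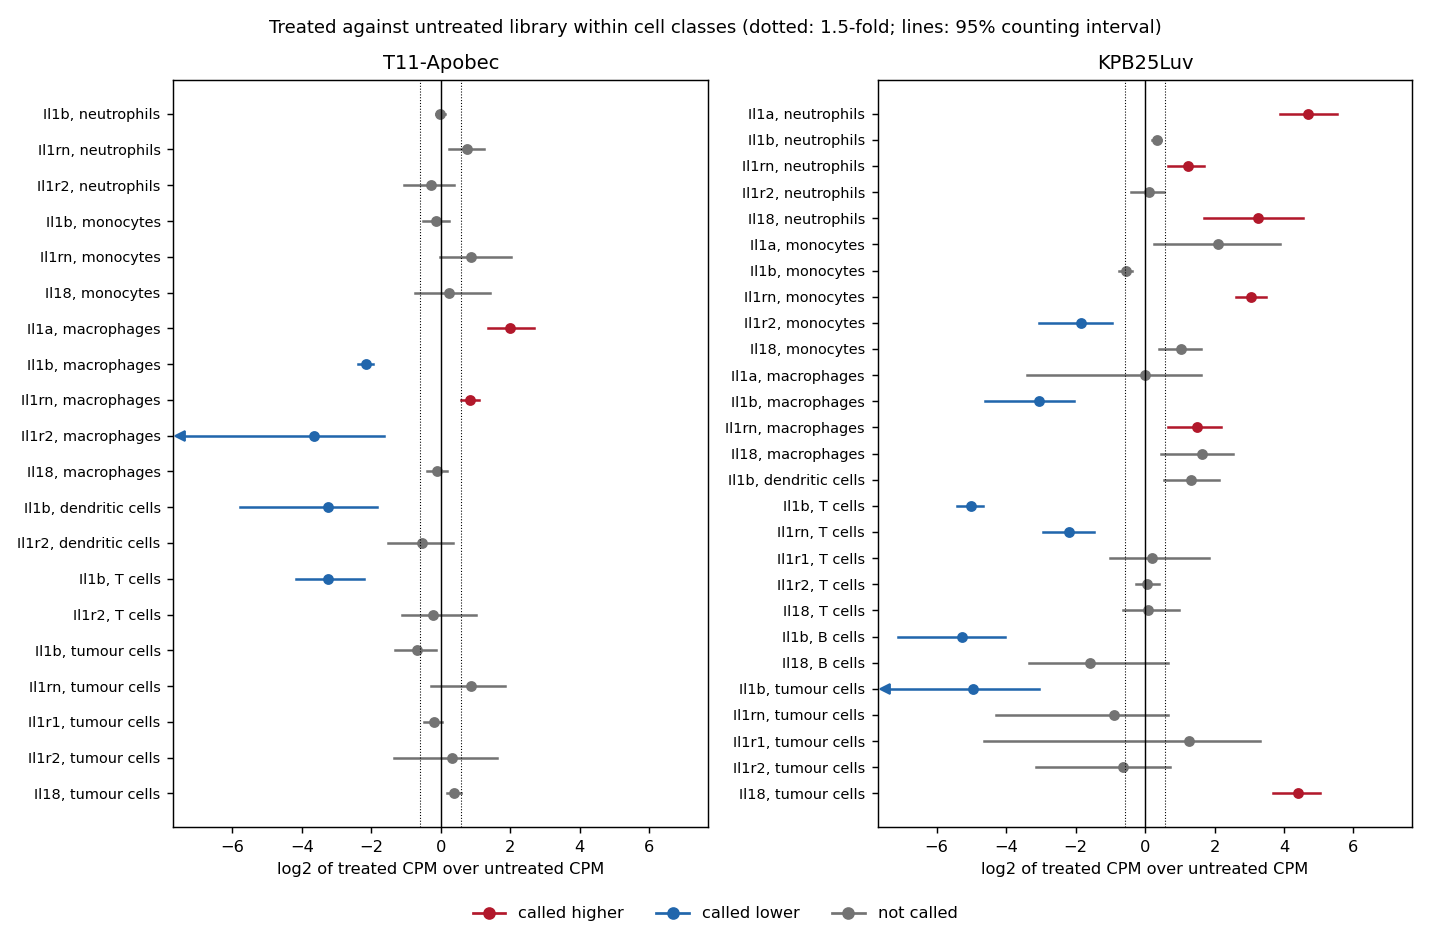
Log2 ratio of treated over untreated CPM for each gene and class with 10 or more UMIs over the pair of libraries and 1 or more in each; lines are exact 95% counting intervals, dotted lines mark 1.5-fold, and arrowheads mark intervals that run past the axis. In macrophages of both models Il1b and Il1rn lie on opposite sides of 0 (-2.15 and 0.84 in T11-Apobec, -3.06 and 1.503 in KPB25Luv), whereas Il1b in neutrophils lies at -0.01 and 0.33.

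Counted by class, most calls were in myeloid cells, which also had most of the pairs of gene and class with enough UMIs. In T11-Apobec macrophages 5 of the 6 genes had enough UMIs, and 2 were called higher (Il1a, Il1rn) and 2 lower (Il1b, Il1r2), where 3.76% of 11837 genes were called higher and 2.97% lower. KPB25Luv macrophages gave 1 higher (Il1rn) and 2 lower (Il1b, Il1r2) of 5, against 2.65% and 1.86% of all genes. Of 5 genes in KPB25Luv neutrophils, 3 were called higher (Il1a, Il1rn, Il18) and 0 lower, against 2.96% and 1.44%. T11-Apobec neutrophils gave 0 calls of 3, where 3.36% of genes were called higher and 1.0% lower. Monocytes gave 0 of 3 in T11-Apobec (2.08% and 2.05%) and, in KPB25Luv, Il1rn higher and Il1r2 lower of 5 (3.91% and 3.11%). The 1 gene called of 3 was Il1b in T11-Apobec T cells, where 2.24% of genes were lower and 0.577% higher, and Il1b and Il1rn the 2 of 5 in KPB25Luv T cells, where 9.10% were lower and 3.66% higher. In T11-Apobec tumour cells 0 of 5 were called, against 4.61% higher and 2.92% lower. KPB25Luv keratin-positive cells gave Il18 higher and Il1b lower of 6, in a comparison where 11.3% of all genes were higher and 2.65% lower. Dendritic cells were few (25 to 61 per library): Il1b was 1 of 2 called in T11-Apobec, lower at 20.1 CPM, from 3 UMIs, against 220.01 CPM (a call lost in thinned cells, at a log2 ratio of -2.22), where 4.81% of genes were called higher and 1.59% lower. In KPB25Luv dendritic cells 0 of 1 was called (2.26% and 1.49%). B cells of KPB25Luv gave Il1b lower, 1 of 2, against 1.61% higher and 3.52% lower. Keratin-positive cells of T11-Apobec gave 0 of 1, against 2.42% and 3.73%.

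The remaining genes of the pathway were read as a list of 49 symbols, of which 45 were in the feature table: ligands and receptors, signalling adaptors and kinases, NF-kappaB genes, the inflammasome and induced targets. In T11-Apobec macrophages 33 had enough UMIs, 3 were higher and 3 lower, and the median log2 ratio was 0.04 beside -0.08 over all genes. Of all genes there, 3.76% were called higher and 2.97% lower. Il18bp, which encodes the IL-18 binding protein, was at 71.9 against 17.9 CPM and the monocyte chemokine gene Ccl2 at 854 against 309 CPM. The neutrophil chemokine genes Cxcl1 and Cxcl2 were lower, at 2.18 against 12.9 CPM and at 94.9 against 325 CPM. KPB25Luv macrophages had 2 higher and 0 lower of 37 (median 0.43 beside -0.13), where 2.65% of all genes were higher and 1.86% lower. The 2 were Il18bp at 215 against 12.8 CPM and Nfkbia, an NF-kappaB inhibitor induced by that factor, at 451 against 189 CPM. Il18bp was also higher in monocytes of both models, at 47.2 against 7.48 CPM in T11-Apobec, where the untreated value is 2 UMIs and the log2 interval is 0.69 to 5.76, and at 108 against 3.19 CPM in KPB25Luv.

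In neutrophils the list gave 1 higher and 1 lower of 13 in T11-Apobec, where 3.36% of all genes were higher and 1.0% lower. The median was 0.08 beside 0.22. The higher gene was Il18bp, 8 against 2 UMIs with a log2 interval of 1.27 to 6.87, and the lower was Cxcl2 at 6916 against 15684 CPM. KPB25Luv neutrophils gave 9 higher and 0 lower of 30 (median 1.37 beside -0.27), where 2.96% of all genes were higher and 1.44% lower. The higher ones were led by Tnfaip3 (395 against 9.48 CPM), an inhibitor of NF-kappaB signalling, and Nfkbia (8228 against 978 CPM). KPB25Luv monocytes gave 6 higher and 2 lower of 36 (median 0.53 beside -0.11), where 3.91% of all genes were higher and 3.11% lower. Among the higher ones, Ccl2 was at 671 against 136 CPM. Lower there were Il1rl1, the IL-33 receptor gene, and Il18r1, a subunit of the IL-18 receptor, with 0 treated UMIs each and 55 and 34 untreated UMIs.

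T11-Apobec tumour cells had 9 pathway genes higher and 2 lower of 37 (median 0.14 beside -0.04), where 4.61% of all genes were higher and 2.92% lower. Casp1, the protease that matures IL-1β and IL-18, was at 7.07 against 0.583 CPM and Il18bp at 22.7 against 3.25 CPM. Cxcl1 was at 43.0 against 86.9 CPM and Cxcl2 at 1.11 against 5.50 CPM. KPB25Luv keratin-positive cells had 11 higher and 3 lower of 39 (median 0.55 beside 0.25), where 11.3% of all genes were higher and 2.65% lower. The higher ones were led by Il33, an epithelial alarmin of the same family, at 35.4 against 0.883 CPM and Il18bp at 33.3 against 2.02 CPM. Cxcl2 was lower at 2.04 against 30.6 CPM. The neutrophil genes S100a8 and S100a9 together were at 3.40 against 117 CPM in the same keratin-positive cells. The part of free RNA in the Cxcl2 values was not tested. T cells gave 0 of 33 in T11-Apobec (median -0.30 beside -0.08), where 0.577% of all genes were higher and 2.24% lower. In KPB25Luv T cells 2 were higher and 7 lower of 36 (median -0.03 beside 0.03), where 3.66% of all genes were higher and 9.10% lower. The higher ones were Casp1 at 58.2 against 22.3 CPM and Tnfaip3 at 52.4 against 20.1 CPM. The lower ones included Cxcl1 (0.221 against 7.79 CPM) and Cxcl3 (0.221 against 7.604 CPM), and all 5 target genes with enough UMIs were lower in that library pair, in which S100a8 and S100a9 in T cells were at 2.03 against 156 CPM and Krt8 at 2.87 against 239 CPM.

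Patterns across cells were compared over 38 sums of a class in a library, by Pearson correlation of log2(CPM + 10) among 12769 genes. The sums share libraries and depth, so the coefficients only describe likeness. The genes most like Il1b were Cxcl2 (0.945), 1600010M07Rik (0.940) and Trem1 (0.935), and those most like Il1rn were Clec4d (0.985), Clec4e (0.972) and Fpr2 (0.961). Il1r2 was closest to F630028O10Rik (0.903), Ppp1r3d (0.890) and 1600010M07Rik (0.880). Il1r1 was nearest to Ston1 (0.913), A4galt (0.912) and Adamts12 (0.911). Il1a stood nearest to A530013C23Rik (0.870), Tlr4 (0.866) and Ptgs2os2 (0.863), and Il18 to AI839979 (0.909), Tlr2 (0.846) and Gm46224 (0.846).

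Among neutrophils with an Il1rn UMI, 92.7% to 100% also held Il1b, but 93.9% to 97.2% of all neutrophils did, so this share cannot show whether the 2 genes go together. For Il1rn and Il1r2, 37.2% of untreated KPB25Luv neutrophils with Il1r2 held Il1rn, against 33.7% of all neutrophils there. In macrophages, where most cells held no Il1b UMI, the UMIs lay in fewer cells. The tenth of cells with the most Il1b UMIs held 90.2% of them in treated and 65.0% in untreated T11-Apobec macrophages, against 29.3% and 29.1% in neutrophils of the same libraries. Such a share rises by itself as UMIs per cell fall, and the median cell held 0 Il1b UMIs in both macrophage sets, against 13 and 8.5 in neutrophils. Whether the UMIs gathered in fewer macrophages than the lower level alone gives was not tested.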

How the data were processed

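The deposited files of each library were raw UMI count matrices made with Cell Ranger 3.0.2, per the file headers, on the mouse build mm10, per the submitters' processing notes. Further steps of the authors are not given in the sources used here. Every deposited barcode held at least 500 UMIs. Cells with at least 200 genes and at most 10% mitochondrial UMIs were kept. The 6 genes, the pathway list of 49 genes and the marker rules were chosen with earlier results of these data known. A cell took a class when UMIs of the class's marker genes passed a minimum number and a minimum share of the cell's UMIs (0.05% for T cells, 0.2% for macrophages, 0.5% for neutrophils). The minimum shares for classes other than macrophages and neutrophils were added after seeing the data, because keratin-positive cells of untreated KPB25Luv met the first T cell rule. The neutrophil rule was also widened then, because neutrophils with little S100a8 had fallen in no class. It asks for 5 UMIs summed over the 6 neutrophil genes, in place of 10 UMIs of S100a8 and S100a9. The minimum for the other neutrophil genes was lowered too. These changes were judged on Krt8, Cd3e, Ptprc and S100a8 only. Cells meeting several rules (118 to 271 per library) were left out as possible doublets, and no doublet caller was run. Libraries shared 34 to 125 barcodes per pair, 0.523% to 1.85%.

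Counts were summed per class and library. CPM have exact Poisson 95% intervals, shares of cells Clopper-Pearson intervals, and ratios of libraries exact conditional intervals, with 0.5 UMIs added to both counts for the ratio itself. A ratio was called across all genes tested where its interval lay past 1.5-fold. With 1 library per group there is no test and no p-value. In the text, all 6 genes are named, pathway genes are taken from the 2 highest and 2 lowest called per class and model, ranked by the interval end nearest to 0, and the 3 most correlated genes are given per member. Python 3.11.15 with numpy 2.4.6, scipy 1.17.1, pandas 2.3.3 and matplotlib 3.10.9 was used, and the code was tested on simulated data. The alternatives changed the cell filters, marker minimums, scaling, cell weighting, depth and doublet handling.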

Additional observations from a re-analysis of the deposited data

Results flagged for a closer look

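Il1b in dendritic cells moved in opposite directions in the 2 models. The log2 ratio of treated over untreated was -3.25 (-5.78 to -1.83) in T11-Apobec, from 3 UMIs in 32 cells against 55 UMIs in 61 cells, and the call was lost in thinned cells, at -2.22. In KPB25Luv it was 1.32 (0.54 to 2.14), from 36 UMIs in 25 cells against 24 UMIs in 31 cells, and 1 treated cell held 16 of the 36. It was called higher, at 1.63, only as the mean of each cell's own CPM. The difference between the models was not tested, since each group is 1 library.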

How the results depend on the processing

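Of 19 called differences, 10 kept their call in every alternative that gave a value and 0 reversed, over 9 alternatives planned and 1 added after seeing the data. In KPB25Luv macrophages and neutrophils only 6 alternatives gave a value, since the others left under 25 cells in a library. In log2 ratios of treated over untreated, keeping cells of several classes gave -2.04 for Il1b in T11-Apobec T cells, -1.75 for Il1b and -1.55 (not called) for Il1r2 in T11-Apobec macrophages, and -1.36 for Il1b in KPB25Luv macrophages. Thinning cells to 1000 UMIs gave -1.74 (not called) for Il1b in T11-Apobec T cells, -1.73 for Il1b and 1.51 for Il1rn in T11-Apobec macrophages, -0.40 (not called) for Il1r2 in KPB25Luv monocytes and -2.22 (not called) for Il1b in T11-Apobec dendritic cells. In KPB25Luv keratin-positive cells it gave -1.80 for Il1b (not called) and 5.77 for Il18, which then had too few UMIs for a call. The mean of each cell's own CPM gave -0.82 (not called) for Il1b in T11-Apobec T cells. Setting the median ratio of all genes to 0 gave 1.71 for Il1rn in KPB25Luv neutrophils, where it moved the median of all genes by 0.49 (by 0.19 in KPB25Luv macrophages), and doubled marker minimums gave 2.47 for Il1rn in KPB25Luv monocytes. The marker minimums as first written gave -4.49 for Il1b in KPB25Luv T cells, 3.34 for Il18 in keratin-positive cells and -1.43 (not called) for Il1r2 in KPB25Luv monocytes. The cause of these shifts was not tested. No library could be left out with 1 per group. No paired analysis was possible because each group has 1 library. Treated neutrophils, dendritic cells and treated KPB25Luv macrophages were few (25 to 61 cells), which limits what could be called there.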
